A study of Mus musculus with 30 samples.

Results

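Hypoxia and glycolysis genes were followed through the mouse fetal airway as a set of 10 named genes, Slc2a1, Hk2, Pfkl, Aldoa, Pgk1, Eno1, Ldha, Pdk1, Bnip3 and Egln3, out of 53715 genes in the count tables. They were chosen by name and matched to the tables through the gene symbols of the GENCODE annotation, and all 10 were found. Messenger RNA of 30 libraries, each from a single lung or trachea, was counted per gene in a study that asked what airway smooth muscle contributes to the developing airway. In that study Myocd, which codes for myocardin, the coactivator that switches on contractile genes of smooth muscle, was deleted in the lung and trachea.

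The groups were mutant (n = 6) and control (n = 4) tracheas at E18.5, mutant (n = 6) and control (n = 4) right lung lobes at E18.5, and mutant (n = 5) and control (n = 5) right and left lung lobes at E13.5. E gives the day of embryonic development. Mutants were labelled Tbx4rtTAi/+; tetOcrei/+; MyocdF/F, and controls Tbx4rtTAi/+; tetOcrei/+; MyocdF/+, so that controls carried the same transgenes and 1 floxed Myocd allele. The exception was E13.5 control replicate 1, labelled MyocdF/F with neither transgene. The Tbx4 transgene codes for the reverse tetracycline transactivator that drives Cre, so deletion was limited to cells in which Tbx4 sequences are active, and the other cells of each organ kept Myocd.

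Cells that lack oxygen stabilise the hypoxia-inducible factors (HIF), a pair of subunits that bind DNA together and switch on glucose uptake and glycolysis. Prolyl hydroxylases use oxygen to mark the HIF alpha subunit for destruction, and one of them, Egln3, is itself a HIF target and so part of a feedback loop. Fetal organs develop at low oxygen, and rapidly dividing fetal cells take up much glucose and turn much of the pyruvate into lactate. Within the set, Slc2a1 codes for the glucose transporter GLUT1, and Hk2 (hexokinase), Pfkl (the liver form of phosphofructokinase), Aldoa (aldolase), Pgk1 (phosphoglycerate kinase) and Eno1 (enolase) code for enzymes along the path of glycolysis. Ldha codes for the lactate dehydrogenase subunit that favours lactate, Pdk1 for a mitochondrial kinase that inhibits pyruvate dehydrogenase and so keeps pyruvate from becoming acetyl-CoA, and Bnip3 for a mitochondrial protein that promotes mitophagy.

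The libraries differed in ways that touch the results. Total counts ran from 11738468 to 30465585 in tracheas, from 19858023 to 32843686 in E18.5 lungs and from 17431300 to 28450117 in E13.5 lungs. Ribosomal RNA took 0.758% to 14.5% of counts in tracheas and at most 0.126% in any lung, and 3 mutant tracheas (replicates 2, 3 and 4) were above 5%. The summed level of 8 skeletal muscle markers was 19.8 to 3230 CPM (counts scaled to the library's total) in mutant tracheas and 36.2 to 2650 CPM in control tracheas, and it reached 1000 CPM in mutant replicates 4, 5 and 6 and in control replicates 1 and 4. Myocd kept reads in every library: 2.69 to 8.80 CPM in mutant and 0.889 to 8.06 CPM in control tracheas, 5.59 to 10.1 CPM in mutant and 6.03 to 11.8 CPM in control lungs at E18.5, and 6.74 to 13 CPM in mutant and 10.1 to 18.8 CPM in control lungs at E13.5. The deleted exons are not given in the sources used here, so counts over the whole gene do not check the genotype. The sum of 4 smooth muscle markers was lower in mutants with no overlap in each tissue: 100 to 306 CPM against 590 to 878 CPM in the trachea, 198 to 215 CPM against 229 to 262 CPM in E18.5 lung, and 137 to 338 CPM against 498 to 668 CPM in E13.5 lung.

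The 10 genes lie on 7 chromosomes of the GRCm38 build. The transporter and the enzymes of the first steps are Slc2a1 at chr4:119108711-119137983 (plus strand), Hk2 at chr6:82725025-82774454 (minus strand), Pfkl at chr10:77986947-78010083 (minus strand) and Aldoa at chr7:126795234-126800751 (minus strand). The later enzymes are Pgk1 at chrX:106187100-106203699 (plus strand), Eno1 at chr4:150236721-150248879 (plus strand) and Ldha at chr7:46841475-46855627 (plus strand). The regulators are Pdk1 at chr2:71873224-71903858 (plus strand), Bnip3 at chr7:138890836-138909519 (minus strand) and Egln3 at chr12:54178981-54203860 (minus strand). Counts cover the exons of each gene. Reads that fit several places were not counted, and the share of 75-base stretches of a gene's transcripts that also occur in another gene's was 52.8% for Pgk1 (Pgk1-rs7 and other copies), 34.4% for Bnip3 and 23.0% for Eno1 (Eno1b and other copies). The levels of these 3 genes are therefore uncertain and may be too low as printed, while the same share was at most 2.7% for the other members. Strand was not recorded, and 22.3% of the exon bases of Bnip3 overlap the antisense gene Gm45507. The smallest number of reads behind any value was 129, for Bnip3, and the median library had 523 reads for Bnip3 and 16244 for Ldha.

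The HIF complex binds a short core that reads ACGTG or GCGTG. Promoter windows of RefSeq (GRCm38.p6), from 250 bases before to 50 bases after a gene's start, were searched for both cores on both strands. All 10 members had a window, and each had a match in at least 1 of its windows, 14 of 16 windows in all. Of 32851 windows in the table, 43.8% held a match, 19.6% with ACGTG and 32.4% with GCGTG, and 20.6% held at least 2. Some members have several windows, and windows of the same gene can overlap and hold the same match. The counts of members and of their windows therefore cannot be compared with that share. A CACGTG counts as 2 overlapping matches, since it reads the same on both strands. One window each of 4 members is printed, for genes that differed between stages in opposite directions. Pgk1 and Ldha were lower and Bnip3 and Egln3 higher at E18.5, and Bnip3 changed least of these 4. Ldha has a second window, with 2 matches, and Eno1, which fell most, has 3 windows, and these are not printed. Capitals mark the matches, and each sequence reads in the direction of transcription.
Pgk1, chrX:106186850-106187149, + strand: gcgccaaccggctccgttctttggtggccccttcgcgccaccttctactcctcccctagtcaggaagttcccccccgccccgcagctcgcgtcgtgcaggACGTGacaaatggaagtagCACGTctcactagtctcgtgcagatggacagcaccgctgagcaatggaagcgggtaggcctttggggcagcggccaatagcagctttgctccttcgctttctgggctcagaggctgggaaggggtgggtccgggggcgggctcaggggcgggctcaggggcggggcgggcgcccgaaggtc
Ldha, chr7:46845554-46845853, + strand: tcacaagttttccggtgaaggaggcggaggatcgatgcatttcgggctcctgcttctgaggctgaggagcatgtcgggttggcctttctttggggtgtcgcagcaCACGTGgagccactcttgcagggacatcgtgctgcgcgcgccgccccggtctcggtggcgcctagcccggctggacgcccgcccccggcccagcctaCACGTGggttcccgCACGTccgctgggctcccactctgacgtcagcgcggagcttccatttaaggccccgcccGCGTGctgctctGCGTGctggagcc
Bnip3, chr7:138909457-138909756, - strand: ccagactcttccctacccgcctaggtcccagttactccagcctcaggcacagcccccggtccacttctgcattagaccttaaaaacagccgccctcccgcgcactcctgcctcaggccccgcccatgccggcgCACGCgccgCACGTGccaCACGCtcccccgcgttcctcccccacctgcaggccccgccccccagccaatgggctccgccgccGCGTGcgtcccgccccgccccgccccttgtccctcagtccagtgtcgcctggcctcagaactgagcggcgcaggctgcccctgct
Egln3, chr12:54203825-54204124, - strand: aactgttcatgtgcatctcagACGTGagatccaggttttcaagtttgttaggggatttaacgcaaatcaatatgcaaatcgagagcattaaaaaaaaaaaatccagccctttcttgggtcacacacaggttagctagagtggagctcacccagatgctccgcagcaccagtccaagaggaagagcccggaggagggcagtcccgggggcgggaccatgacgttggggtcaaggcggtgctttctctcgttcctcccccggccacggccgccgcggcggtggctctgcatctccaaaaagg
With the first base of the window at -250, Pgk1 had 2 ACGTG matches, at -150 and -131. The printed window of Ldha had 7 matches, of which 4 came from 2 CACGTG stretches. Bnip3 had 5 matches around 1 CACGTG, and Egln3 had 1, at -229. The falling pair and the rising pair thus both include a window with many matches and one with few. A match is a description of the letters and says nothing of whether the factor binds there.

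Ldha and Aldoa were the most abundant members per length of transcript in all 6 groups, and Bnip3, Pdk1 and Hk2 were among the least. In E18.5 lung Aldoa averaged 115 ± 9.46 CPM per kb in mutants (SD, n = 6) and 125 ± 17.7 CPM per kb in controls (SD, n = 4), and Ldha averaged 112 ± 6.93 and 120 ± 14.6 CPM per kb in the same mutants and controls. These 2 neighbours did not differ beyond their spread. At E13.5 Ldha stood above Aldoa, at 245 ± 41.8 against 140 ± 16.9 CPM per kb in mutants and 270 ± 37.1 against 156 ± 25.3 CPM per kb in controls (SD, n = 5 each). Egln3 ranked 3 of the 10 in mutant and control tracheas and lungs at E18.5 and 8 in both E13.5 groups. Pgk1, Eno1 and Bnip3 may be too low as printed because of their copies, so ranks beside them, that of Egln3 included, are uncertain. Below it in E18.5 lung, the means of Pfkl, Eno1, Pgk1 and Slc2a1 lay between 17.4 and 25 CPM per kb, and neighbours in that run did not differ beyond their spread.

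**Figure D1:**
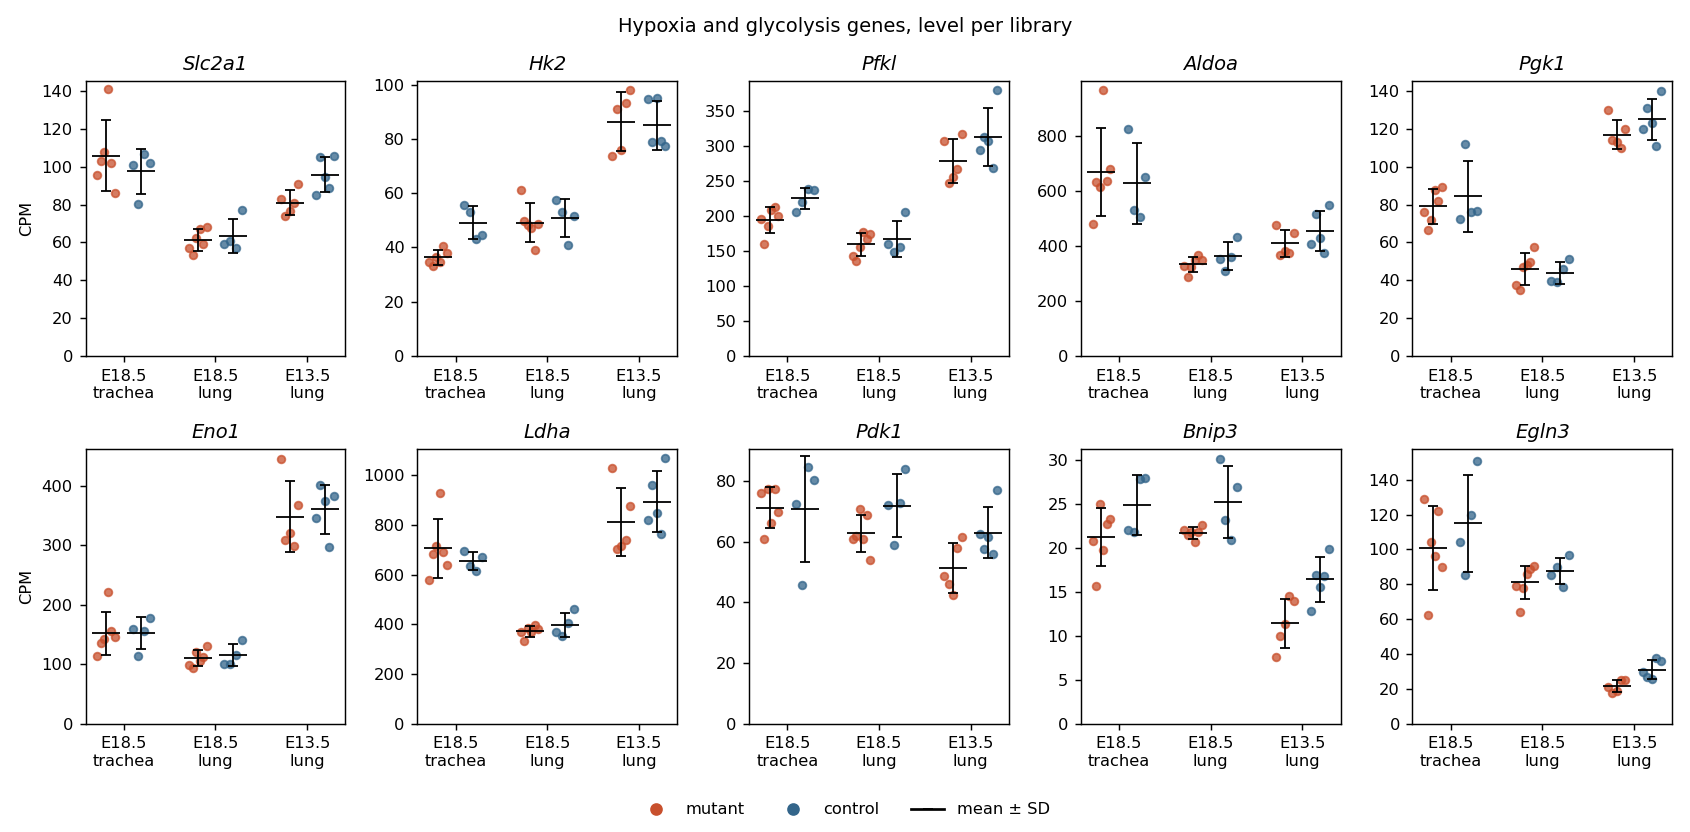
Level of each of the 10 genes in CPM (vertical axes, from 0) in E18.5 trachea, E18.5 lung and E13.5 lung, with 1 point per library, mutants in orange and controls in blue; black lines give the mean and SD of each group. The points of E18.5 and E13.5 lung separate for most genes, whereas mutants and controls of a tissue overlap except for Hk2 in trachea (33.1 to 40.7 CPM in mutants) and Egln3 in E13.5 lung (17.7 to 24.9 CPM in mutants).

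The first question was whether loss of Myocd moved these genes. None of the 10 passed the test in E18.5 trachea, E18.5 lung or E13.5 lung (edgeR quasi-likelihood test with Benjamini-Hochberg adjustment over all genes tested, threshold 0.05). Few genes of any kind passed: 0.0710% of 18315 in trachea, 0.584% of 17467 in E18.5 lung and 0.206% of 16486 in E13.5 lung. At an unadjusted p under 0.05 there were 1, 0 and 4 members, where 6.75%, 9.41% and 3.57% of all genes tested were under it. DESeq2 called 0, 0 and 1 members in the same 3 tissues. The p-values measure the spread between animals, since each library is a single lung or trachea. In bulk tissue, fewer cells of a type and less RNA per cell cannot be told apart.

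In the mutant trachea the member that stood lowest against control was Hk2, which commits glucose to the cell by phosphorylating it. Hk2 was at 33.1 to 40.7 CPM in mutants (median 35.6), against 55.6, 53.1, 43.1 and 44.7 CPM in controls. Every mutant trachea was below every control trachea, which held for 1.47% of all genes tested in that direction; 2.32% were apart in either. The log2 fold change was -0.42 (SE 0.115), with an unadjusted p of 0.00271 and an adjusted p of 0.458 by edgeR. The adjusted p ran from 0.143 to 0.945 over the alternatives, and the fold change from -0.35 to -0.48. Hk2 stood at -0.46 without the 5 tracheas rich in skeletal muscle markers and at -0.37 without the 3 tracheas above 5% ribosomal RNA. In E18.5 lung Hk2 was at 38.9 to 61.3 CPM in mutants (median 48.6), against 57.6, 53.0, 41.0 and 51.6 CPM in controls, and the groups overlapped. The difference between the mutant effects in trachea and lung was -0.33 (SE 0.167, adjusted p = 0.741 by edgeR). In the same tracheas smooth muscle markers were lower in mutants, as given above, chondrocyte markers summed to a median of 5880 CPM in mutants and 14700 CPM in controls, and erythroid markers to a median of 1070 CPM in mutants and 539 CPM in controls. Their part in the difference of Hk2 was not tested. For its paralog Hk1 the mean in tracheas was 86.7 ± 18.7 CPM in mutants (SD, n = 6) and 112 ± 31.5 CPM in controls (SD, n = 4).

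The other members of the trachea stood between -0.21 (Bnip3) and 0.14 (Ldha and Slc2a1), with groups that overlapped. Pfkl, at -0.19 (SE 0.0988), had 160 to 213 CPM in mutants (median 197) and 206, 219, 238 and 237 CPM in controls. In all, 5 of the 10 were below 0, as were 47.4% of all genes tested, and their median was -0.02, beside 0.016 for all genes tested. Mutant trachea replicate 4 held the highest value of Aldoa (964 CPM), Ldha (928 CPM), Eno1 (221 CPM) and Slc2a1 (141 CPM), and it had 14.5% ribosomal RNA and 1920 CPM of skeletal muscle markers. Without mutant replicates 2, 3 and 4, those above 5% ribosomal RNA, these 4 genes stood at -0.06, -0.03, -0.13 and -0.04 on the log2 scale, against 0.12, 0.14, 0.03 and 0.14 with them.

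In E18.5 lung, 9 of the 10 members had a log2 fold change below 0, as did 48.7% of all genes tested, and no member's groups were apart, where 2.42% of all genes tested were, 1.83% with mutants lower. The members ran from -0.21 to 0.07 with a median of -0.08, beside 0.005 for all genes tested. Bnip3 had 20.6 to 22.6 CPM in mutants (median 21.8) and 30.1, 23.1, 20.9 and 26.9 CPM in controls. Its log2 fold change was -0.21 (SE 0.102, adjusted p = 0.546 by edgeR). The 6 mutant lungs lay close together, and 1 of the 4 controls fell among them while the other three were higher. Pdk1 had 53.8 to 70.6 CPM in mutants (median 61.3) and 71.9, 58.7, 72.8 and 83.9 CPM in controls, which came to -0.19 on the log2 scale (SE 0.0928, adjusted p = 0.550).

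The largest differences between mutants and controls were in E13.5 lung and concerned Egln3 and Bnip3. Egln3, the oxygen-using hydroxylase of the feedback loop, was at 21.2, 17.7, 18.7, 24.9 and 24.9 CPM in mutants, against 29.8, 26.9, 25.5, 37.5 and 36.0 CPM in controls. All 5 mutants were below all 5 controls, as were 0.704% of all genes tested; 0.983% were apart in either direction. The log2 fold change was -0.53 (SE 0.130), with an unadjusted p of 0.00159 and an adjusted p of 0.316 by edgeR. DESeq2 called it, with an adjusted p of 0.0387, and over all alternatives the adjusted p ran from 0.0387 to 0.859 and the fold change from -0.46 to -0.59. Without control replicate 1, the control with neither transgene, Egln3 stood at -0.54.

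Bnip3 was at 7.60, 10, 11.3, 14.5 and 13.9 CPM in E13.5 mutants, against 12.8, 16.9, 15.5, 16.8 and 19.9 CPM in controls. Mutant replicates 4 and 5 reached into the range of the controls. Its log2 fold change was -0.50 (SE 0.165, adjusted p = 0.882 by edgeR). Pdk1 had 48.5, 46.0, 42.5, 57.8 and 61.6 CPM in mutants and 62.5, 57.4, 61.4, 55.9 and 77.0 CPM in controls, which came to -0.29 on the log2 scale (SE 0.116, adjusted p = 0.998 by edgeR). Slc2a1 had 83.1, 73.9, 76.9, 80.9 and 90.7 CPM in mutants and 85.0, 105, 94.6, 88.9 and 106 CPM in controls, which came to -0.24 (SE 0.0791, adjusted p = 0.925). Among the mutants 2 entered the range of the controls for Pdk1 and 1 for Slc2a1. Those 4 genes were the members with an unadjusted p under 0.05. The enzymes of glycolysis lay between -0.16 (Pfkl) and 0.03 (Hk2), and the members' median was -0.16, beside 0.011 for all genes tested. In all, 9 of 10 members were below 0, as were 45.9% of all genes tested.

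Whether the mutant effect on these genes differed between stages was tested as a difference of differences over the 20 lung libraries. No member passed by edgeR or DESeq2, where 0.0268% of all genes tested passed by edgeR. An unadjusted p under 0.05 was found for 1 member and for 5.85% of all genes tested. Egln3 had the largest difference, 0.42 (SE 0.167, unadjusted p = 0.0194, adjusted p = 0.726 by edgeR), E18.5 minus E13.5. The corresponding test between trachea and lung at E18.5 gave no member past the threshold by either tool, where 0.0252% of all genes tested passed by edgeR, with differences from -0.33 (Hk2) to 0.27 (Aldoa and Ldha). An unadjusted p under 0.05 was found for 0 members and for 6.92% of all genes tested. Markers moved with genotype at E13.5 beside these values: airway epithelium markers summed to 8.58 to 12.8 CPM in mutants and 15 to 19.7 CPM in controls, in addition to the smooth muscle markers given above. In E18.5 lung the airway epithelium markers were lower in mutants too, at 331 to 466 CPM against 668 to 790 CPM in controls. The part of these markers in the differences of Egln3 and Bnip3 was not tested.

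**Figure D2:**
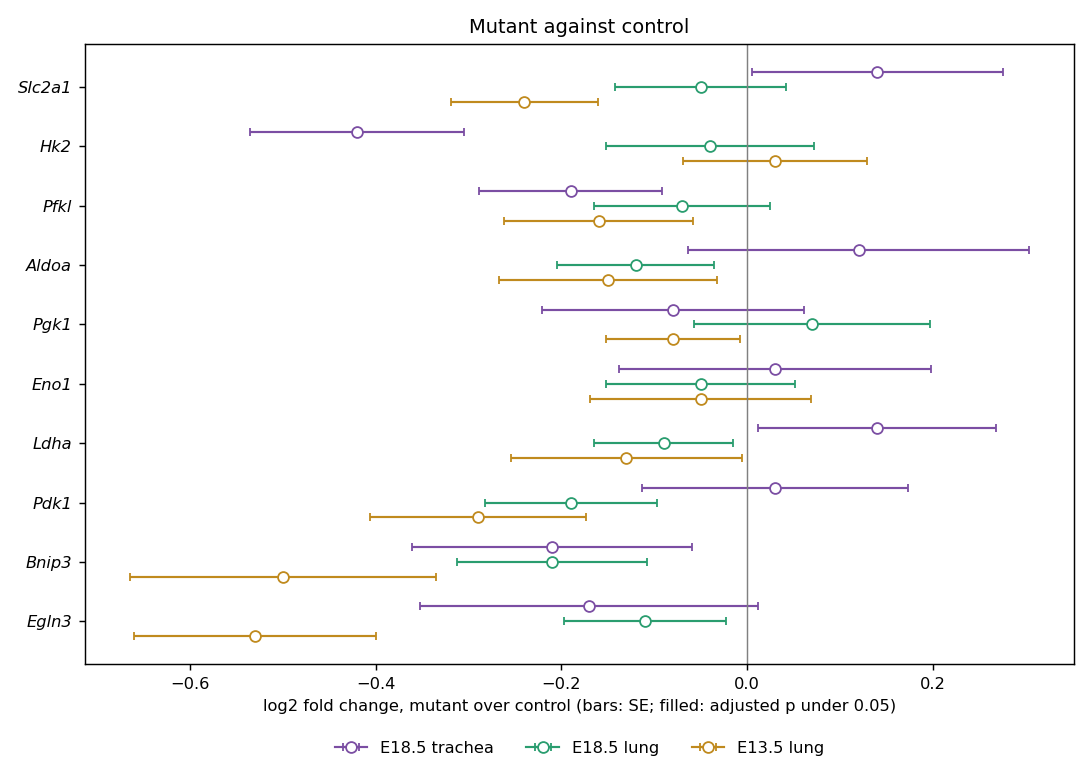
Log2 fold change of mutant over control (horizontal axis) for each gene in E18.5 trachea, E18.5 lung and E13.5 lung, with bars of 1 SE. All points are open, since no gene passed an adjusted p of 0.05, and the points farthest from 0 are Egln3 (-0.53) and Bnip3 (-0.50) in E13.5 lung and Hk2 (-0.42) in trachea.

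The second question was how the set differed between stages of the lung. The genes did not move together: 6 enzymes and the transporter were lower at E18.5 than at E13.5, and the regulators Egln3, Bnip3 and Pdk1 were higher. In control lungs 3 members rose and 6 fell, where 80.0% of 17580 genes tested passed, 40.4% higher and 39.6% lower. In mutant lungs 3 rose and 7 fell, where 74.6% of 17156 genes tested passed, 37.4% higher and 37.2% lower. The groups of 8 members did not overlap in either genotype, as for 61.4% of all genes tested in mutants and 72.8% in controls. A background of this size means that the count of members called is not a result about the set. The fold changes had the same sign in mutants and controls for 10 of 10 members, and the 2 estimates were at most 0.41 apart. The share of all genes tested with the same sign is not given, so that count too is not a result about the set. Stage cannot be told apart from the sequencing table and from the lobes that were taken.

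The falls were largest late in glycolysis. Eno1 was at 94.0 to 130 CPM in mutant lungs at E18.5 (median 109), against 444, 309, 320, 298 and 368 CPM at E13.5. In control lungs it was at 101, 101, 116 and 140 CPM at E18.5, against 345, 401, 374, 297 and 383 CPM at E13.5. The stages did not overlap in either genotype, and the log2 fold change was -1.62 (SE 0.112, adjusted p = 1.15e-09) in mutants and -1.59 (SE 0.114, adjusted p = 2.61e-08) in controls.

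Pgk1, which makes the first ATP of glycolysis, was at 34.7 to 57.6 CPM in E18.5 mutant lungs (median 47.7), against 130, 114, 113, 110 and 120 CPM at E13.5. In controls it was at 39.5, 39.1, 45.7 and 51.4 CPM at E18.5, against 120, 131, 123, 111 and 140 CPM at E13.5. Every E18.5 lung was below every E13.5 lung, by -1.32 (SE 0.111) in mutants and -1.45 (SE 0.0930) in controls on the log2 scale. Ldha was at 332 to 399 CPM in E18.5 mutant lungs (median 375), against 1030, 702, 715, 742 and 879 CPM at E13.5. In controls it was at 370, 355, 405 and 464 CPM at E18.5, against 822, 962, 850, 764 and 1070 CPM at E13.5. Here too the stages were apart, with log2 fold changes of -1.09 (SE 0.101, adjusted p = 4.62e-08) in mutants and -1.11 (SE 0.107, adjusted p = 4.40e-07) in controls.

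The earlier steps fell less. Pfkl averaged 159 ± 17 CPM at E18.5 (SD, n = 6) and 278 ± 31.4 CPM at E13.5 (SD, n = 5) in mutants, and 167 ± 25.7 CPM at E18.5 (SD, n = 4) and 312 ± 41.6 CPM at E13.5 (SD, n = 5) in controls. Hk2 fell by 0.78 in mutants and by 0.69 in controls on the log2 scale, and Slc2a1 fell by 0.37 in mutants and by 0.53 in controls. For these 3 genes the stages did not overlap in either genotype. Aldoa overlapped between stages: it averaged 333 ± 27.5 CPM at E18.5 and 409 ± 49.1 CPM at E13.5 in mutants, and 363 ± 51.5 CPM at E18.5 and 454 ± 73.6 CPM at E13.5 in controls. Its log2 fold change of -0.25 (SE 0.0891) passed in mutants (adjusted p = 0.0171 by edgeR), and -0.27 (SE 0.121) did not in controls (adjusted p = 0.0590). In mutants the call was lost without E18.5 replicate 2, at -0.21. In controls a call was gained with DESeq2, at -0.26, and without E13.5 replicate 1, E13.5 replicate 4 or E18.5 replicate 4, at -0.31, -0.34 and -0.36.

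Egln3 rose most. It was at 64.2 to 90.6 CPM in E18.5 mutant lungs (median 82.4), against 21.2, 17.7, 18.7, 24.9 and 24.9 CPM at E13.5. In controls it was at 85.4, 89.7, 78.6 and 96.7 CPM at E18.5, against 29.8, 26.9, 25.5, 37.5 and 36.0 CPM at E13.5. Each E18.5 lung was more than 2 times as high as the median of its genotype at E13.5, and the log2 fold change was 1.96 (SE 0.114, adjusted p = 1.33e-10) in mutants and 1.55 (SE 0.109, adjusted p = 1.91e-08) in controls. The difference between the genotypes is the one tested above, which no member passed. Bnip3 rose by 0.96 (SE 0.136) in mutants and 0.68 (SE 0.127) in controls on the log2 scale, with stages apart in both. Pdk1 averaged 62.7 ± 6.11 CPM at E18.5 and 51.3 ± 8.08 CPM at E13.5 in mutants, and 71.8 ± 10.3 CPM at E18.5 and 62.9 ± 8.36 CPM at E13.5 in controls, with overlap in both. Its rise of 0.33 (SE 0.101, adjusted p = 0.00751) passed in mutants, and that of 0.25 (SE 0.107) only just passed in controls (adjusted p = 0.0473). The control call for Pdk1 was lost without a filter on low counts, at 0.22, and without any 1 of E13.5 replicates 1, 2, 3 and 4 (0.24, 0.18, 0.24 and 0.20) or E18.5 replicates 1, 3 and 4 (0.26, 0.25 and 0.17).

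Other marker lists moved with stage. In control lungs cell cycle markers summed to 360 to 565 CPM at E18.5 and 1670 to 1850 CPM at E13.5. Erythroid markers summed to 4910 to 6550 CPM at E18.5 and 490 to 953 CPM at E13.5, lung epithelium markers to 13200 to 15400 CPM at E18.5 and 503 to 652 CPM at E13.5, and endothelial markers to 2360 to 2540 CPM at E18.5 and 511 to 680 CPM at E13.5. Their part in the stage differences was not tested.

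The 5 wider lists moved in both directions. Of all genes tested in control lungs, 40.4% rose and 39.6% fell. In control lungs, of the paralogs of the members, 9 rose and 5 fell of 17 tested between E13.5 and E18.5. The largest rises were Pdk4 (31.6 ± 16.2 CPM at E18.5, 1.61 ± 0.128 CPM at E13.5), Hkdc1 and Pdk2. Of the other steps of glycolysis and glycogen use, 8 rose and 8 fell of 18, with Pgam2, a muscle form of phosphoglycerate mutase, and the glycogen phosphorylases Pygm and Pygl highest, at 4.38 (SE 0.229), 3.25 (SE 0.130) and 2.32 (SE 0.0649) on the log2 scale. The list also holds the enzymes of the glycolytic steps between the members, which were picked out after their values were seen. Pkm (pyruvate kinase) averaged 383 ± 24.7 CPM at E18.5 (SD, n = 4) and 1300 ± 111 CPM at E13.5 (SD, n = 5), a fall of 1.70 (SE 0.0795). Gapdh, Pgam1 and Tpi1 fell by 1.53 (SE 0.0947), 1.39 (SE 0.150) and 1.18 (SE 0.121), and Gpi1 stood at -0.14 (SE 0.0792, adjusted p = 0.118). In mutant lungs Pkm, Gapdh, Pgam1 and Tpi1 fell by 1.64, 1.76, 1.23 and 1.19. Of the 12 genes of the HIF and oxygen-sensing machinery, 6 rose and 5 fell. Epas1, the HIF alpha subunit abundant in endothelium, averaged 472 ± 50.5 CPM at E18.5 (SD, n = 4) and 54.2 ± 1.6 CPM at E13.5 (SD, n = 5), and Hif3a rose by 2.61 (SE 0.111), while Arnt2 fell by 2.82 (SE 0.161). Of 31 other HIF targets 20 rose and 7 fell, with a median of 0.57 beside 0.008 for all genes tested, and Ndrg1 (3.35, SE 0.112) and Bhlhe40 (2.82, SE 0.139) were among those that rose.

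Of 24 genes of pyruvate oxidation and the tricarboxylic acid (TCA) cycle, 2 rose and 18 fell in control lungs at E18.5, and 4 did not pass the test, where 39.6% of all genes tested fell. Their median was -0.48, beside 0.008 for all genes tested. Mdh2, malate dehydrogenase of the mitochondrion, averaged 152 ± 6.61 CPM at E18.5 and 301 ± 8.17 CPM at E13.5, and Dld and Fh1 fell by 0.94 (SE 0.0701) and 1.12 (SE 0.0775). The mutant lungs gave 8 and 5 paralogs that rose and fell, 7 and 8 other glycolytic steps, 6 and 4 genes of oxygen sensing, 20 and 6 other HIF targets, and 2 and 16 genes of pyruvate oxidation. Of all genes tested there, 37.4% rose and 37.2% fell. In mutant lungs Mif, a HIF target, fell by 2.83 (SE 0.123) and Ankrd37 rose by 2.63 (SE 0.184). No gene of these 5 lists passed by edgeR in any comparison of mutants with controls, nor in the 2 difference tests. DESeq2 called 1 paralog in trachea, 2 other HIF targets in E18.5 lung and 1 paralog in E13.5 lung, and 0 genes of the lists in the difference tests. An unadjusted p under 0.05 was found for 6 of 17 paralogs in trachea, where 6.75% of all genes tested were under it, and for 8 of 31 other HIF targets in E13.5 lung, where 3.57% were. Of these HIF targets 22 of 31 were below 0, as were 45.9% of all genes tested.

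The third question was how the trachea differed from the lung at E18.5. Most members were higher in the trachea, the transporter Slc2a1 and the enzymes Aldoa, Pgk1, Ldha, Pfkl and Eno1 among them, and Hk2 was not. In control organs 7 members rose and 0 fell, where 52.4% of 17553 genes tested passed, 24.7% higher and 27.7% lower. In mutant organs 8 rose and 1 fell, where 60.5% of 17564 genes tested passed, 31.2% higher and 29.2% lower. The members' median was 0.46 in mutants and 0.41 in controls, beside 0.039 and -0.051 for all genes tested. The organs did not overlap for 4 members in mutants and 5 in controls, as for 43.5% and 52.6% of all genes tested. Trachea cannot be told apart here from what was dissected with it.

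Aldoa was at 480 to 964 CPM in mutant tracheas (median 633), against 288 to 368 CPM in mutant lungs (median 336). In controls it was at 824, 529, 503 and 651 CPM in tracheas, against 353, 308, 358 and 432 CPM in lungs. Every trachea was above every lung, with log2 fold changes of 1.07 (SE 0.135, adjusted p = 2.56e-06) in mutants and 0.78 (SE 0.155, adjusted p = 0.00135) in controls. The 2 highest tracheas, mutant replicate 4 and control replicate 1, are 2 of those rich in skeletal muscle markers. Without the tracheas rich in these markers Aldoa stood at 0.86 in mutants and 0.55 in controls.

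Pgk1 was at 66.6 to 89.5 CPM in mutant tracheas (median 79.0), against 34.7 to 57.6 CPM in mutant lungs (median 47.7). In controls it was at 72.6, 112, 76.2 and 76.6 CPM in tracheas, against 39.5, 39.1, 45.7 and 51.4 CPM in lungs, and the organs were apart in both genotypes. The log2 fold change was 0.86 (SE 0.120, adjusted p = 8.72e-06) in mutants and 0.94 (SE 0.158, adjusted p = 0.000439) in controls. Ldha averaged 707 ± 118 CPM in tracheas and 372 ± 22.9 CPM in lungs of mutants (SD, n = 6 each), and 654 ± 36.3 CPM in tracheas and 399 ± 48.4 CPM in lungs of controls (SD, n = 4 each). Its groups were apart as well, at 1.0 (SE 0.107) in mutants and 0.71 (SE 0.0905) in controls.

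Slc2a1 was at 86.0 to 141 CPM in mutant tracheas (median 103), against 53.2 to 68.0 CPM in mutant lungs (median 60.7). In controls it was at 101, 80.3, 107 and 102 CPM in tracheas, against 59.3, 60.9, 57.3 and 77.0 CPM in lungs. Every trachea was above every lung, by 0.87 (SE 0.112) in mutants and 0.61 (SE 0.112) in controls on the log2 scale. Pfkl rose by 0.36 (SE 0.0883) in mutants and 0.43 (SE 0.102) in controls, with groups apart in controls.

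For Eno1 in controls, and for Egln3 in both genotypes, the call was lost when single libraries were left out. Eno1 averaged 152 ± 36.4 CPM in tracheas and 110 ± 13.4 CPM in lungs of mutants, and 152 ± 27.2 CPM in tracheas and 115 ± 18.2 CPM in lungs of controls, and the organs overlapped. It rose by 0.53 (SE 0.136, adjusted p = 0.00263) in mutants and by 0.40 (SE 0.135, adjusted p = 0.0281) in controls. The control call was lost without control tracheas 1 and 4, those rich in skeletal muscle markers (0.27), and without any 1 of lungs 1, 2 and 3 (0.35, 0.34 and 0.40) or tracheas 1 and 4 (0.42 and 0.37). Egln3 had 62.6 to 129 CPM in mutant tracheas (median 100) and 64.2 to 90.6 CPM in mutant lungs (median 82.4), a rise of 0.38 (SE 0.138, adjusted p = 0.0245). In controls it had 104, 85.4, 120 and 151 CPM in tracheas and 85.4, 89.7, 78.6 and 96.7 CPM in lungs, a rise of 0.39 (SE 0.142, adjusted p = 0.0395). That call was lost in controls without the same 2 tracheas (0.27) and without any 1 of lungs 1, 2 and 3 (0.38, 0.39 and 0.33) or tracheas 3 and 4 (0.42 and 0.28). In mutants it was lost without tracheas 4, 5 and 6 (0.35) and without any 1 of lung 2 and tracheas 1 and 5 (0.32, 0.30 and 0.32).

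Hk2, Pdk1 and Bnip3 did not follow. Hk2 was at 33.1 to 40.7 CPM in mutant tracheas (median 35.6) and 38.9 to 61.3 CPM in mutant lungs (median 48.6), a fall of 0.37 on the log2 scale (SE 0.101, adjusted p = 0.005 by edgeR). In controls the tracheas, at 55.6, 53.1, 43.1 and 44.7 CPM, overlapped the lungs, at 57.6, 53.0, 41.0 and 51.6 CPM, with a log2 fold change of -0.05 (SE 0.132). Pdk1 rose by 0.25 in mutants (SE 0.0874, adjusted p = 0.0194) and stood at -0.03 (SE 0.169) in controls, where trachea replicate 2 was lowest, at 45.6 CPM. Bnip3 stood at 0.04 (SE 0.111) in mutants and -0.03 (SE 0.148) in controls. Whether these organ differences themselves differ between mutants and controls is the same test as that of the mutant effect between trachea and lung, which no member passed.

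Marker lists differed between the organs beside these values. Chondrocyte markers summed to 3430 to 13200 CPM in mutant and 10600 to 16300 CPM in control tracheas, against 42.5 to 61.1 CPM in mutant and 44.7 to 56.9 CPM in control lungs. Erythroid markers summed to 535 to 3660 CPM in mutant and 374 to 750 CPM in control tracheas, against 4120 to 5430 CPM in mutant and 4910 to 6550 CPM in control lungs. In controls, lung epithelium markers summed to 701 to 754 CPM in tracheas and 13200 to 15400 CPM in lungs, and endothelial markers to 294 to 353 CPM in tracheas and 2360 to 2540 CPM in lungs. Airway epithelium markers summed to 2200 to 2910 CPM in control tracheas and 668 to 790 CPM in control lungs, and leukocyte markers to 239 to 284 CPM in tracheas and 717 to 975 CPM in lungs. In mutants each of these 4 lists was apart between the organs in the same direction except leukocyte markers, at 271 to 647 CPM in tracheas and 484 to 770 CPM in lungs, which overlapped. The part of these cell types in the organ differences was not tested. Without the tracheas rich in skeletal muscle markers, 7 members rose and 1 fell in mutants, and 5 rose and 0 fell in controls. Without the 3 mutant tracheas above 5% ribosomal RNA, 8 rose and 1 fell. These fits held fewer tracheas, and the share of all genes called in them is not given. Their counts are therefore not a result about the set or about skeletal muscle.

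**Figure D3:**
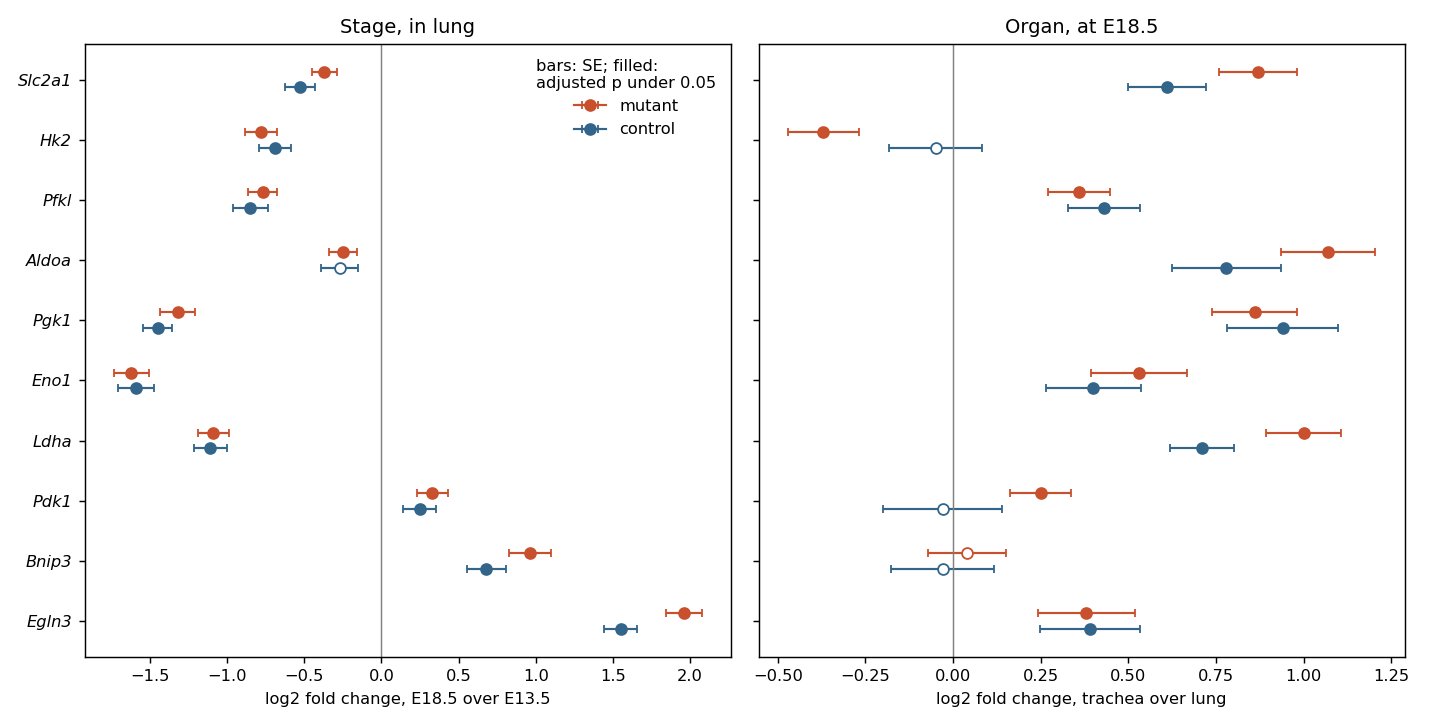
Log2 fold change of E18.5 over E13.5 lung (left panel) and of trachea over lung at E18.5 (right panel) for each gene, in mutants (orange) and controls (blue), with bars of 1 SE; filled points passed an adjusted p of 0.05. In the left panel Eno1 (-1.62 in mutants, -1.59 in controls) and Egln3 (1.96 and 1.55) are the extremes, and in the right panel most genes lie right of 0 while Hk2 lies left of it in mutants (-0.37).

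In the trachea too the wider lists moved in both directions. Of all genes tested, 24.7% rose and 27.7% fell in control organs, and 31.2% rose and 29.2% fell in mutant organs. In control organs 6 paralogs rose and 3 fell of 18 tested, and Hk3, a hexokinase of myeloid cells, and Eno2, the neuronal enolase, rose by 2.46 (SE 0.308) and 2.2 (SE 0.209) on the log2 scale, whereas Hkdc1 fell by 4.18 (SE 0.634). Of the other glycolytic steps 3 rose and 6 fell of 18: Slc16a3, a lactate exporter, averaged 48.3 ± 5.82 CPM in tracheas and 14.6 ± 2.40 CPM in lungs, and Pfkfb3, which makes the activator of phosphofructokinase, averaged 19.2 ± 4.78 CPM in tracheas and 65.1 ± 8.19 CPM in lungs (SD, n = 4 each). Among the enzymes between the members, Tpi1 averaged 443 ± 38.5 CPM in control tracheas and 194 ± 31.7 CPM in control lungs, a rise of 1.19 (SE 0.112), and Gapdh rose by 0.42 (SE 0.133). Pkm, Gpi1 and Pgam1 stood at 0.14 (SE 0.0703), 0.12 (SE 0.0729) and -0.14 (SE 0.173) and did not pass. Of the oxygen-sensing genes 3 rose and 7 fell of 12, with Hif3a at 248 ± 33.3 CPM in tracheas and 626 ± 109 CPM in lungs. Of the other HIF targets 13 rose and 10 fell of 31. Stc2 rose by 4.09 (SE 0.186), and Vegfa, the endothelial growth factor, fell by 2.68 (SE 0.0808). Of the genes of pyruvate oxidation and the TCA cycle 5 rose and 3 fell of 24, with Suclg1 higher (0.49, SE 0.0857) and Suclg2 lower (-0.57, SE 0.107). The mutant organs gave 7 and 7 paralogs that rose and fell, 5 and 7 other glycolytic steps, with rises of Tpi1 by 1.55 (SE 0.127), Gapdh by 0.76 (SE 0.118), Pkm by 0.35 (SE 0.100) and Gpi1 by 0.34 (SE 0.0810), 2 and 8 oxygen-sensing genes, 16 and 11 other HIF targets, and 8 and 3 genes of pyruvate oxidation.

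The members also changed their weight within their own families of isoenzymes, taken as the share of the family's CPM per kb. Hk2 made up 37.8 ± 3.80% of Hk1, Hk2 and Hk3 in mutant lungs at E18.5 (SD, n = 6) and 68.5 ± 2.51% at E13.5 (SD, n = 5). In controls it made up 38.1 ± 2.73% at E18.5 (SD, n = 4) and 65.2 ± 3.05% at E13.5 (SD, n = 5). Hk1 took the larger share at E18.5, 58.4 ± 3.53% in mutants and 58.1 ± 2.19% in controls. The leading gene of Hk1, Hk2 and Hk3 thus differed between stages. The paralog Hkdc1 was not part of these shares. In control lungs it averaged 18.7 ± 4.05 CPM at E18.5 and 4.2 ± 0.563 CPM at E13.5. The lowest E13.5 share of Hk2, 61.5%, was above the highest E18.5 share in lung, 42%.

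Pdk1 made up 15.8% to 23.5% of the 4 pyruvate dehydrogenase kinases in the group means. The rest of that family was exchanged: Pdk3 made up 17.8 ± 1.64% at E18.5 and 55.9 ± 4.27% at E13.5 in mutant lungs, and 16.4 ± 1.58% at E18.5 and 51.9 ± 1.49% at E13.5 in control lungs. Pdk2 made up 51.3 ± 2.40% at E18.5 and 22.4 ± 2.95% at E13.5 in mutants, and 48.7 ± 4.05% at E18.5 and 23.2 ± 1.28% at E13.5 in controls. Egln3 made up 32.6 ± 2.0% of the 3 prolyl hydroxylases at E18.5 and 13 ± 1.97% at E13.5 in mutant lungs, and 35.0 ± 0.791% at E18.5 and 17.2 ± 2.16% at E13.5 in control lungs.

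Ldha held 81.1% to 86.4% of Ldha and Ldhb in the 6 group means, and Slc2a1 held 67.4% to 82.5% of the 3 transporters Slc2a1, Slc2a3 and Slc2a4, so that both led their families throughout. Aldoa held 99.0% of the aldolases in both E13.5 groups and 90.6 ± 1.75% in mutant and 91.2 ± 1.56% in control tracheas, where Aldoc made up most of the rest. Eno1 held 55.8 ± 1.64% in mutant and 55.4 ± 4.52% in control lungs at E18.5, against 81.5 ± 0.927% in mutant and 82.9 ± 1.6% in control lungs at E13.5. In tracheas Eno1 held 39.6 ± 11.5% in mutants and 37.0 ± 15.1% in controls. There Eno3, the muscle enolase, ranged over libraries from 16.3% to 72.2% in mutants and from 19.2% to 74.5% in controls, in the tissue in which skeletal muscle markers ranged most. These shares are descriptions and were not tested, and that of Eno1 is uncertain because of its copies.

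**Figure D4:**
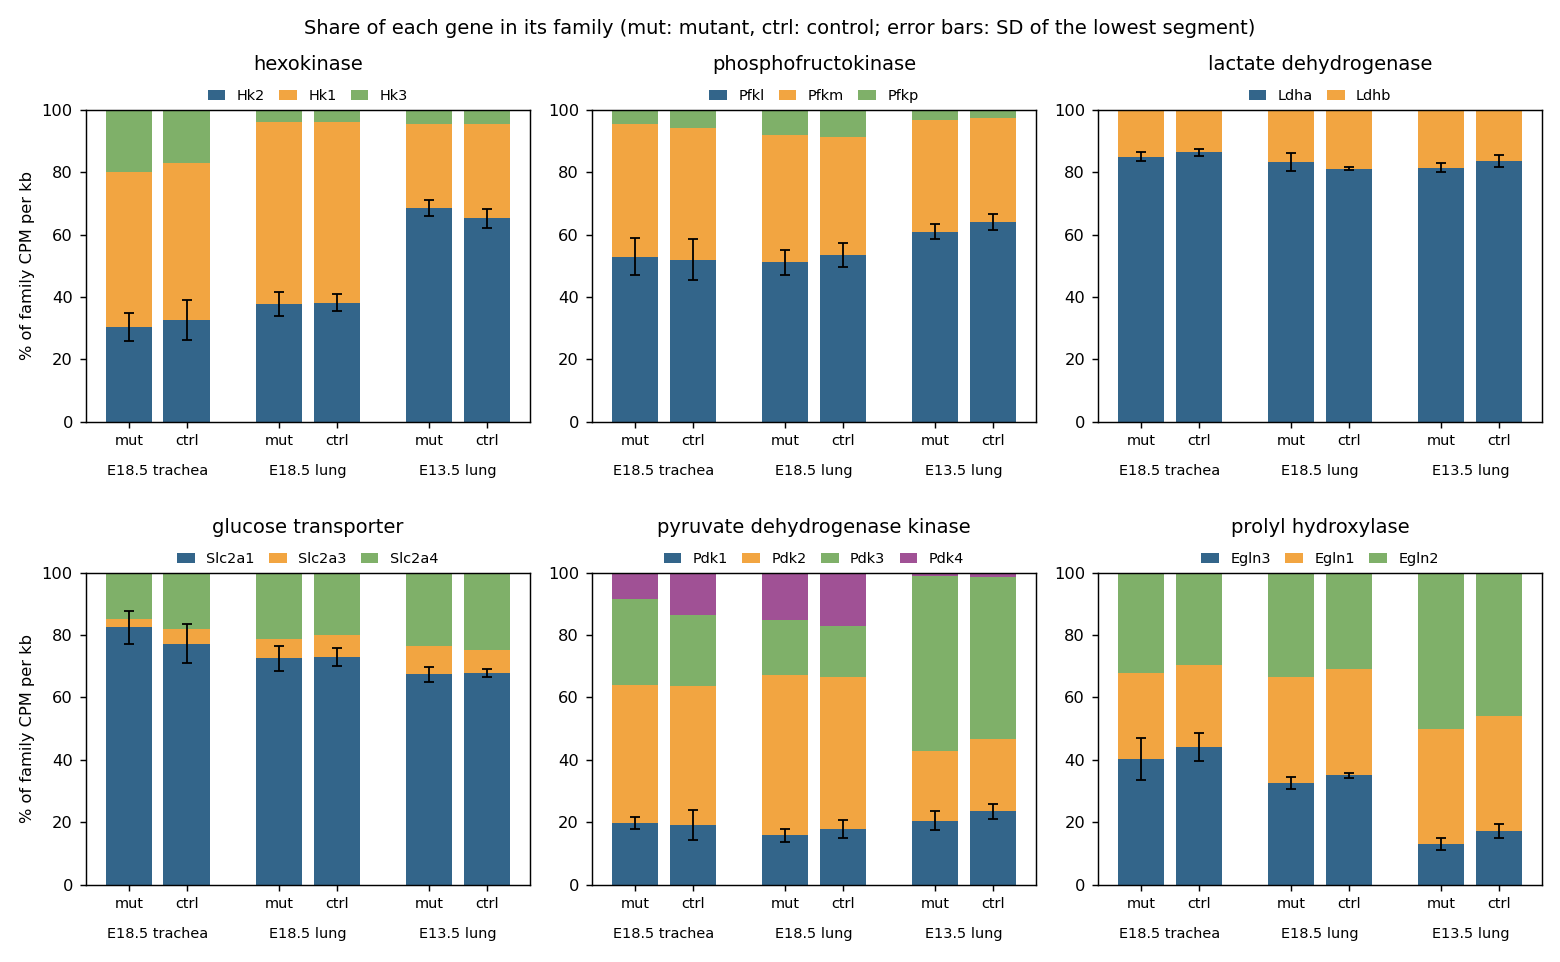
Mean share of each gene in the summed CPM per kb of its family (vertical axes, percent) in mutants and controls of E18.5 trachea, E18.5 lung and E13.5 lung; error bars give the SD of the lowest segment, the member of the set. Hk2 holds 37.8% and 38.1% at E18.5 in mutant and control lungs but 68.5% and 65.2% at E13.5, and Egln3 holds 32.6% and 35.0% at E18.5 but 13% and 17.2% at E13.5.

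In some libraries most members deviated from their group mean in the same direction. Control lung replicate 4 at E18.5 held the highest value of its group for 8 of the 10 members, with a mean deviation of 0.21 on the log2(CPM + 1) scale, and mutant lung replicate 2 at E18.5 held the lowest for 7, with -0.17. At E13.5, control replicate 5 was highest for 7 members (0.19), control replicate 4 was lowest for 6 (-0.12) and mutant replicate 2 was lowest for 5 (-0.13). Among tracheas, mutant replicate 2 was lowest for 6 members (-0.21), with Egln3 at 62.6 CPM, and mutant replicate 4 had a mean deviation of 0.20. Hk2 did not always follow: in mutant lung replicate 1 at E18.5 it held the highest value of its group, at 61.3 CPM, where the mean deviation of the set was -0.04. Bnip3 and Egln3 in E13.5 mutants were both highest in replicates 4 and 5, at 14.5 and 13.9 CPM for Bnip3 and 24.9 and 24.9 CPM for Egln3. In E13.5 controls Egln3 was also highest in replicates 4 and 5, at 37.5 and 36.0 CPM. Bnip3 was highest there in replicates 5 and 2, at 19.9 and 16.9 CPM. Mutant tracheas 2 and 4 had 6.48% and 14.5% ribosomal RNA, and whether RNA quality plays a part in their deviation was not tested. The coefficient of variation was lowest for Bnip3 in E18.5 mutant lungs, 3.09%, and highest for Pdk1 in control tracheas, 24.7%.

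**Figure D5:**
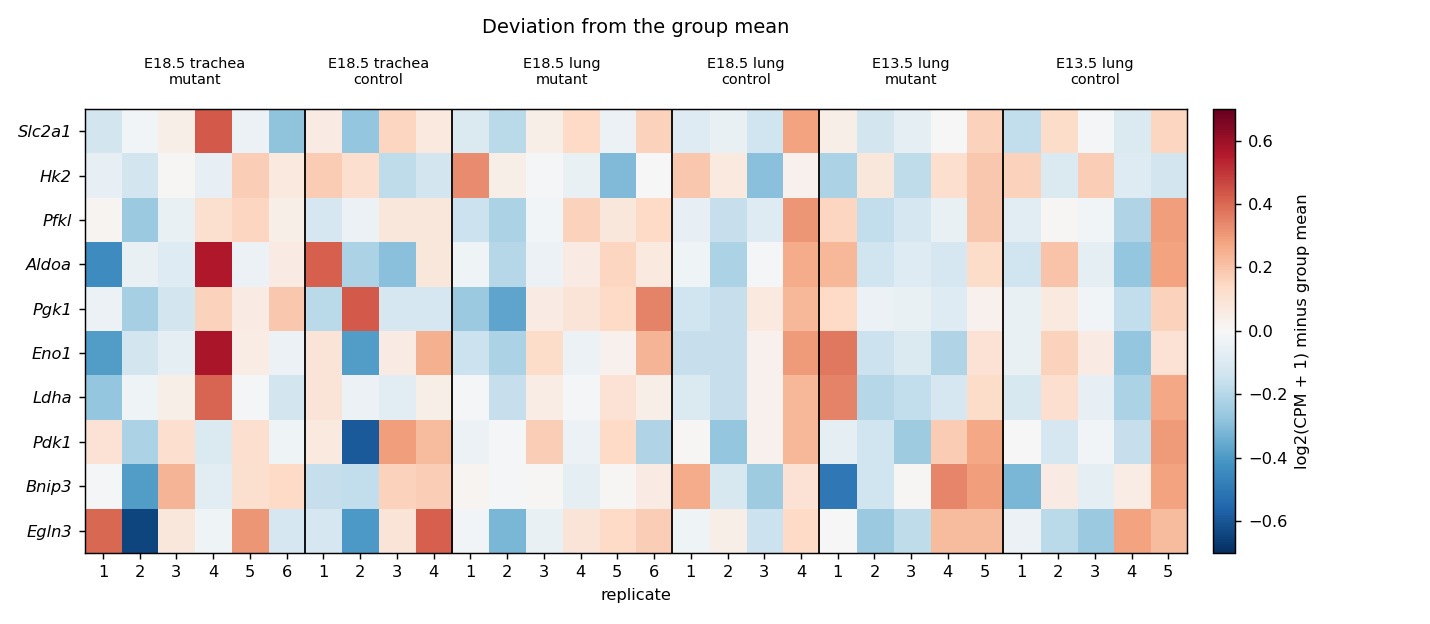
Deviation of each gene from its group mean on the log2(CPM + 1) scale (colour, red above and blue below) in each of the 30 libraries, ordered by group and replicate. Columns of 1 colour are libraries in which most members deviate together, such as control lung replicate 4 at E18.5 (mean 0.21) and mutant trachea replicate 2 (mean -0.21).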

How the data were processed

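Reads per gene were counted by the authors with featureCounts 1.6.2, without strand and leaving out reads that fit several places, per the file headers, and deposited as raw counts in 3 tables (E18.5 trachea, E18.5 lung, E13.5 lung). Alignment was with STAR and testing with DESeq2, per the series' design text, whose aligner version the labels do not state. The submitters' processing notes name GENCODE vM17, on GRCm38. Libraries were unstranded, of 75-base single reads, per the labels' protocols.

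Counts were tested with edgeR 4.0.16 (TMM, filterByExpr, robust quasi-likelihood F test, two-sided, Benjamini-Hochberg over all genes tested, threshold 0.05) in R 4.3.3 with limma 3.58.1, after tests on simulated data. Stage was compared across tables on raw counts, normalised together. CPM uses TMM-scaled totals over the 30 libraries. The SE is the absolute log2 fold change over the square root of F. Alternatives were DESeq2 1.42.0, its size factors, no filter, a replicate block and each replicate left out. Leaving out tracheas above 5% ribosomal RNA or 1000 CPM of skeletal muscle markers was chosen after seeing the data.

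The members and lists were chosen with earlier results of these data known. All members are named, and from each other list up to 3 called genes with the largest change and at least 5 CPM in the higher group, or the most abundant gene where none passed. One gene that this rule names is not reported here. The symbol Aldoa stands on 2 gene IDs, and the one at the RefSeq position was used; the other had 13 to 105 counts. Same-numbered control tracheas and lungs deviated together (r 0.112 to 0.201 in 4 pairs, all above 0.1). The running numbers in the sample titles also follow the same order of controls and mutants in lungs and tracheas. Same-numbered organs may thus be pairs from the same animal, which the labels do not state. The printed organ tests, and the difference test between trachea and lung, are unpaired and treat the libraries as independent. Only the blocked fit, an alternative, used the numbers, and it also called 7 members there.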

Additional observations from a re-analysis of the deposited data

Results flagged for a closer look

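Pgk1 was 112 CPM in E18.5 control trachea replicate 2, and the next highest of the 4 control tracheas had 76.6 CPM. The gap was 0.899 of the group's range. Of 60 sets of values (10 genes in 6 groups) this was the 1 in which a sample lay this far from the others, where chance flags about 1 in 20. The same library had 11738468 counts in all and 2470 CPM of cardiac muscle markers, against 367 to 397 CPM in the other control tracheas, and 0.946% ribosomal RNA. The part of these in the value of Pgk1 was not tested. Without it the log2 fold change of Pgk1 was 0.10 for mutant over control trachea, against -0.08 with it, and 0.81 for control trachea over lung, against 0.94 with it.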

How the results depend on the processing

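Calls of members that were lost or gained are given with the results. Members called, leaving out each replicate in turn, ranged from 9 to 10 for stage in mutants, 8 to 9 for stage in controls, 8 to 9 for organ in mutants and 5 to 7 for organ in controls. In E13.5 lung DESeq2 called 1 member, Egln3, where edgeR called 0. Counts over all genes, leaving out each replicate, ranged from 12374 to 13009 for stage in mutants and 13593 to 14123 for stage in controls. For organ they ranged from 10210 to 11061 in mutants and 8225 to 10836 in controls. In the tests of the mutant effect, the counts over all genes moved more in proportion. In E13.5 lung they were 34 in the edgeR test, 82 with DESeq2, 0 with the replicate block and 17 to 56 leaving out a replicate. In E18.5 lung they were 102, with 192 without a filter, 264 with DESeq2 and 26 to 205 leaving out a replicate. In trachea they were 13, with 22 without a filter, 89 with DESeq2, 28 with the replicate block, 27 without the 5 muscle-rich tracheas and 3 to 16 leaving out a replicate. The difference tests called 5 genes each, 41 (stage) and 64 (organ) with DESeq2, and 3 to 19 and 2 to 9 leaving out a replicate. The cause was not tested.

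Signs changed for members that were not called. With the replicate block in E18.5 lung, Pgk1 stood at -0.07 and Hk2 at 0.03. In trachea without the 3 mutants above 5% ribosomal RNA, Aldoa stood at -0.06, Ldha at -0.03, Slc2a1 at -0.04 and Eno1 at -0.13, and without muscle-rich tracheas Eno1 stood at -0.04. For control trachea over lung, Pdk1 and Bnip3 stood at 0.00 with DESeq2 and with its size factors, and Bnip3 at 0.02 without muscle-rich tracheas; in mutants Bnip3 stood at -0.01 without them. Leaving out a replicate, the mutant effect ranged in trachea from -0.03 to 0.27 (Aldoa), -0.14 to 0.10 (Pgk1), -0.12 to 0.12 (Pdk1) and -0.12 to 0.11 (Eno1). In E18.5 lung it ranged from -0.11 to 0.06 (Eno1), -0.14 to 0.02 (Hk2), -0.12 to 0.04 (Pfkl), -0.01 to 0.15 (Pgk1) and -0.10 to 0.05 (Slc2a1), and in E13.5 lung from -0.15 to 0.00 (Eno1) and -0.02 to 0.08 (Hk2). Trachea over lung ranged from -0.01 to 0.11 for Bnip3 in mutants, and in controls from -0.11 to 0.08 (Bnip3), -0.15 to 0.05 (Hk2) and -0.12 to 0.17 (Pdk1).

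Replicate numbers of mutant tracheas and lungs correlated at 0.063 to 0.224, each of the 6 best with its own number. The order of the sample titles gives the same hint of pairs as in controls, and the labels do not state them. The block also called 9 members in the organ test of mutants. Other numbers did not pair the samples throughout. In E18.5 lung, control replicates 2, 3 and 4 correlated best with the mutant of the same number (0.136, 0.268 and 0.112). Control replicate 1 did not (0.047). In trachea this held for control replicates 2 and 3 (0.145 and 0.295) and not for 1 and 4 (-0.282 and 0.015). The block changed no call of a member.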

Other observations

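The genes whose deviations from the group means were most like the mean of the 10 members over the 30 libraries, among 10418 genes outside the lists, were Tmem204 (Pearson r 0.72), Arfip2 (0.67), Coq8b (0.66), Spef1 (0.66) and Lgals4 (0.65). Depth and RNA quality differed between the libraries, and their part in these values was not tested. The values are a description.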
